A study of Mus musculus with 4 samples.

Results

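The libraries compared were the pair titled with replicate number 2 against the pair titled with replicate number 1, in a series of mouse gastruloid RNA sequencing. All 4 libraries of the series entered, 2 per number, and each number held 1 untreated and 1 dTAG-13 library. Libraries were assigned to a number by the title alone. The comparison itself and its gene lists were chosen with earlier results of these data known, so they are descriptions and no independent support. Gastruloids are aggregates of mouse embryonic stem cells that elongate in culture and lay down tissues of the embryo's trunk. The cells of all 4 libraries were E14 embryonic stem cells with a triple reporter, in which the endogenous Zeb2 gene carries an HA tag and the FKBP12F36V degron. Each aggregate was started from 300 sorted cells, received 3 µM of the WNT pathway activator CHIR99021 from 48 h and was embedded in 10% Matrigel at 96 h, which is the condition for somitic gastruloids. The dTAG-13 libraries came from gastruloids given 100 nM of dTAG-13, a molecule that directs degron-tagged protein to degradation, at 72 h and at 96 h. The other libraries are titled untreated, although DMSO is given as the control in the protocol for growth. The labels do not say what a replicate number stands for (a culture, a day or an RNA preparation), nor from how many aggregates each library was made. Each number has 1 library per treatment. The p-values and standard errors (SE) thus do not measure scatter between repeats under the same number and treatment. They rest on a spread pooled over genes, and part of that spread may be technical.

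In the mouse embryo, the tail bud holds neuromesodermal progenitors, cells that express T (Brachyury), Sox2 and Cdx genes and supply both the spinal cord and the paraxial mesoderm under WNT and FGF signals. Paraxial mesoderm passes through the presomitic state into somites, whereas mesoderm exposed to more BMP becomes intermediate mesoderm, which gives kidney, or lateral plate, which gives heart, body wall and blood vessels. Gastruloids are known to vary between experiments in how much of each tissue they form. In bulk RNA, fewer cells of a type and less RNA per cell cannot be told apart, and this applies to every gene group described here.

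Library values are given in CPM, the read count normalised to depth with edgeR's TMM factors, the untreated library before the dTAG-13 library within each number. Differences are log2 fold changes of number 2 over number 1, with treatment as a term of the fit, so negative values mean that number 1 was higher. A gene was called when its adjusted p (Benjamini-Hochberg over the 13602 genes tested) was under 0.05 in edgeR's quasi-likelihood test. That fit leaves 1 residual degree of freedom, and its p-values and SE (the ± values) rest on a spread shared over genes. The untreated and the dTAG-13 pair can differ by more than the SE. Calls should therefore be read beside the per-library values, beside DESeq2 and beside fits that left out 1 library. These are given for some of the lists and for part of the genes named, and the other calls are shown without them. Gene-assigned reads came to 12716172 and 12230908 in the number 1 libraries and to 11566746 and 11491330 in the number 2 libraries. Mitochondrial transcripts took 1.26% and 1.71% of them in number 1 and 1.91% and 2.06% in number 2, so both measures separated the numbers, and their part in the results was not tested directly. Without the mitochondrial and the 50 most abundant genes, 1765 genes were called against 1743 with them. The share of reads outside genes was 35.65% and 25.3% in number 1 and 24.12% and 29.23% in number 2, and overlapped. Genes with at least 1 count ranged from 16457 to 16906 and overlapped too.

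The labelled tissue was present under both numbers. Meox1, a somite transcription factor, was at 168 and 81.2 CPM in number 1 and at 77.2 and 37.8 CPM in number 2. The presomitic gene Tbx6 was at 19.5 and 10.3 CPM in number 1 and at 13.3 and 7.30 CPM in number 2, with overlapping groups. Sox2, the neural and progenitor factor, was at 104 and 95.6 CPM in number 1 and at 204 and 139 CPM in number 2. Foxa2, a gene of endoderm and floor plate, overlapped between the numbers at 15.1 to 28.5 CPM. The tagged gene Zeb2 was at 98.3 and 103 CPM in number 1 and at 164 and 108 CPM in number 2 (log2 fold change 0.41 ± 0.14 SE, adjusted p = 0.0342 by edgeR and 0.386 by DESeq2). Its 3 lower values lay close together and the untreated number 2 library stood above them. With 1 library left out it ranged from 0.11 to 0.71 and was called in the fit without dTAG-13 replicate 2 (adjusted p = 0.019 by edgeR), not in the other 3.

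Gene expression differed between the numbers in both directions. Mesodermal and vascular genes lay mostly on the number 1 side, and posterior progenitor, neural and epithelial genes mostly on the number 2 side. The neural and epithelial leanings depended on single libraries. With 1 library left out, the median of the neural tube list ranged from 0.007 to 1.01. That of the epithelial list ranged from -0.199 to 1.375. Of 13602 genes, 717 were called higher in number 2 (5.27%) and 1026 higher in number 1 (7.54%). These shares of all genes are the background for the counts of called members in every list below. At least 2-fold differences were called for 271 and 492 genes in these directions, and at least 4-fold differences for 27 and 149. The larger differences thus lay more often on the number 1 side, although the median over all tested genes was 0.00 and 50.6% of genes were higher in number 2. Of all tested genes, 62.6% had the same direction in the untreated and the dTAG-13 pair. Of the 1743 calls, 1734 did, but the fit that called them averages these pairs, so that count is no separate support. Those pairs share no library, and their differences had a Pearson r of 0.63 and a Spearman rho of 0.44 across genes, which are not independent replicates. Both number 2 libraries lay above both number 1 libraries for 3136 genes (23.1%), and below them for 3393 genes (24.9%).

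Libraries of one number resembled each other more than libraries of one treatment by the count of genes at least 2-fold apart. That count was 495 between the number 1 libraries and 598 between the number 2 libraries. It was 1003 between the untreated libraries and 1023 between the dTAG-13 libraries. By chi-square per degree of freedom the order was not the same: 26.39 and 23.95 within a number, 38.41 and 32.6 within a treatment, and 19.77 between dTAG-13 number 1 and untreated number 2, the lowest of the 6 pairs. All 6 values were far above 1, so the libraries of a group are not 1 library deposited under different names.

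The count of calls depended on the tool and on each library. DESeq2 called 235 genes higher in number 2 (1.68% of the genes it tested) and 409 higher in number 1 (2.93%), and 636 of its 644 calls were edgeR calls with the same direction. With 1 library left out, which removes the treatment term, edgeR called 104 genes when dTAG-13 replicate 1 was left out and 148 when untreated replicate 1 was. The counts were 348 when dTAG-13 replicate 2 was left out and 866 when untreated replicate 2 was. The genes called in all 4 of these fits and in the full fit numbered 68, of which 58 were higher in number 1 and 10 higher in number 2. The 10 were Cdx1, Sp8, Fzd10, Zic2, Zfp703, Lefty1, Sema3e, Plcg2, Lhpp and B3gnt7. The 58 included Kdr, Cdh5, Flt4, Tbx20, Hand2, Mef2c, Tnc, Col1a1, Prrx1, Foxc1 and Vegfa. Those of the 68 that are described nowhere else were picked after their values were seen.

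**Figure D1:**
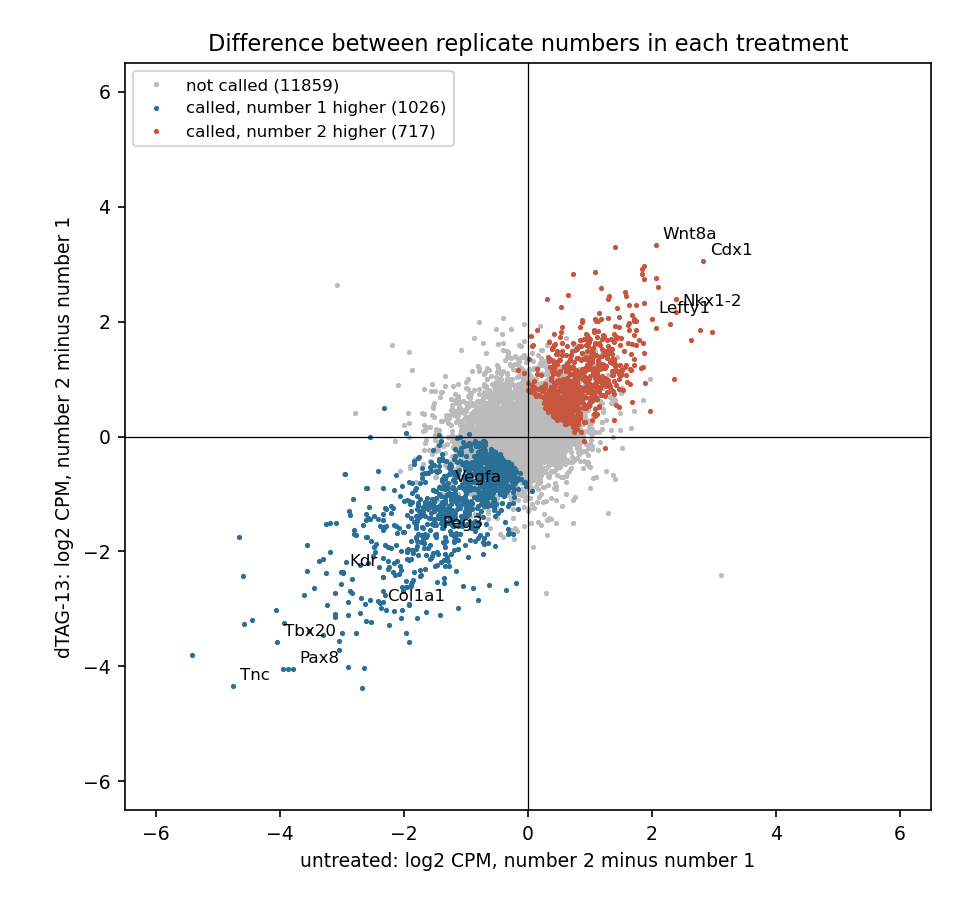
Difference between replicate numbers in log2 CPM (number 2 minus number 1, prior count 2) in the untreated pair (horizontal axis) and in the dTAG-13 pair (vertical axis), 1 point per tested gene, coloured by edgeR's call. The 1026 genes called higher in number 1 lie at the lower left and reach beyond the 717 called higher in number 2 at the upper right, and the 11859 genes not called gather round the origin.

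Endothelial genes were lower in number 2. Of 36 tested members of the endothelial list, 27 were called higher in number 1 and 2 higher in number 2, against 7.54% and 5.27% of all genes, and the list's median was -1.27 (2.41-fold). Kdr (chromosome 5, 75932827 to 75979072 in GRCm38.p6), the main receptor for VEGF-A and an early marker of vascular and cardiac mesoderm, was at 103 and 80.4 CPM in number 1 and at 12.8 and 15.5 CPM in number 2. Both number 1 libraries stood above both number 2 libraries, a log2 fold change of -2.69 ± 0.16 (SE, n = 2 per number, adjusted p = 4.76e-62 by edgeR). Emcn (chromosome 3, 137341062 to 137431069), a surface sialomucin of endothelium, was scarce. It was at 3.84 and 1.36 CPM in number 1 and at 0.356 and 0.17 CPM in number 2, a log2 fold change of -3.25 ± 0.59 (adjusted p = 1.68e-06 by edgeR). The 250 bases upstream of the start site in RefSeq's promoter table (GRCm38.p6) are shown for these 2 genes, as vascular members that move together. Kdr's stretch is chr5:75978456-75978705 on the minus strand, and Emcn's is chr3:137340828-137341077 on the plus strand. In both genes the table's start site lies inside the annotated gene span. Capitals mark the letters AGGAAG, a form of the binding motif of ETS factors, a family that includes Erg, Fli1 and Etv2.
Kdr: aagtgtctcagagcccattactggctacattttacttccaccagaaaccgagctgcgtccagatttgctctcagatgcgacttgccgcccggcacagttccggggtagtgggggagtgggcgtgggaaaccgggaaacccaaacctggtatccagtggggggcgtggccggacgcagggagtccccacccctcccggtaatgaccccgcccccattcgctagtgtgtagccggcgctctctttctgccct
Emcn: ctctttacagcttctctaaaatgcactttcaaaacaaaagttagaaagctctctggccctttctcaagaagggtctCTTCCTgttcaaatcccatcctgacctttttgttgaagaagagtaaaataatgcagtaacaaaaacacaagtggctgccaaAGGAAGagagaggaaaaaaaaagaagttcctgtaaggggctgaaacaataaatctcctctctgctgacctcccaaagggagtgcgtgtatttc
The motif was searched in this form on both strands, and shorter or other forms were not searched. It occurs at positions -174 and -93 in Emcn, counted from the start site to the motif's first base, and these letters are not in this stretch of Kdr. They are present in 29.2% of all 27025 promoters of this length, and the shares of the called genes are given further on.

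Cell adhesion and scavenger genes of endothelium had large differences. Cdh5 encodes VE-cadherin, the adhesion protein of endothelial junctions, and was at 16.6 and 12.5 CPM in number 1 and at 2.58 and 1.19 CPM in number 2 (log2 fold change -2.97 ± 0.29, adjusted p = 2.04e-21 by edgeR). Stab1, a scavenger receptor of sinusoidal endothelium and macrophages, was at 16.5 and 6.31 CPM in number 1 and at 0.534 and 0.509 CPM in number 2, a log2 fold change of -4.38 ± 0.40. Flt4, the VEGF-C receptor, was at 43.5 and 31.9 CPM in number 1 and at 13.3 and 12.2 CPM in number 2, a log2 fold change of -1.55 ± 0.18. None of these 3 genes overlapped between the numbers. The endothelial transcription factors Erg, Fli1, Etv2, Tal1, Sox7 and Sox18 were all called higher in number 1, with log2 fold changes from -2.86 in Erg to -1.22 in Sox7 (named after their values were seen).

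Not every endothelial gene was lower. Pecam1, an adhesion protein of endothelium that stem cells also make, was at 18.7 and 23.2 CPM in number 1 and at 18.0 and 25.3 CPM in number 2, and its log2 fold change was 0.04 ± 0.18 (adjusted p = 0.946 by edgeR). The members called higher in number 2 were Apln, the ligand of the apelin receptor, at 1.12, and Cdh13, at 1.36. Kdr, Cdh5, Flt4 and Fli1 were the 4 of 29 called members that stayed called whichever library was left out. DESeq2 called 12 members higher in number 1 and the same number of members, 2, higher in number 2. Of the blood list, 1 of 5 tested members was called, Runx1, a factor of blood formation, at -0.95 ± 0.28 (adjusted p = 0.0073 by edgeR, 0.366 by DESeq2). The globin genes Hba-x, Hbb-y, Hba-a1 and Hba-a2 were at 0 counts in all 4 libraries and Hbb-bh1 had 1 count in all, so red cell transcripts were at or near 0 under both numbers.

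Lateral plate and cardiac genes were lower in number 2 as well. Of 29 tested members, 24 were called higher in number 1 and 1 higher in number 2, with a list median of -1.90. Tbx20, a T-box factor of the heart, was at 15.7 and 15 CPM in number 1 and at 0.801 and 1.10 CPM in number 2, a log2 fold change of -3.995 ± 0.33 (adjusted p = 5.83e-31 by edgeR). Hand2, a helix-loop-helix factor of heart and limb mesoderm, was at 7.08 and 10.2 CPM in number 1 and at 0.267 and 1.10 CPM in number 2, a log2 fold change of -3.65 ± 0.39. Hand1 (chromosome 11, 57828713 to 57832147), its relative in lateral plate and extraembryonic mesoderm, was at 1.43 and 5.12 CPM in number 1, at 0 in the untreated library of number 2 and at 0.849 CPM in its dTAG-13 library. Its log2 fold change was -2.95 ± 0.52 (adjusted p = 5.67e-07 by edgeR, 0.0157 by DESeq2), and with so few reads its size is imprecise. Mef2c, a muscle and vascular transcription factor, was at 20.3 and 22.1 CPM in number 1 and at 3.38 and 2.21 CPM in number 2. The mesenchyme homeobox genes Alx1 and Prrx2 had log2 fold changes of -3.39 ± 0.32 and -2.17 ± 0.20. In each of these 6 genes both number 1 libraries were above both number 2 libraries, and all but Hand1 stayed called whichever library was left out. DESeq2 called 18 members higher in number 1 and 0 higher in number 2.

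Intermediate mesoderm showed the same direction in all its tested genes: 9 of 9 were called higher in number 1, and DESeq2 called 7. The median was -1.94, with -3.02 when dTAG-13 replicate 2 was left out and -1.48 when dTAG-13 replicate 1 was. Pax8, a paired-box factor of the early kidney, was at 18.2 and 50.3 CPM in number 1 and at 1.16 and 2.89 CPM in number 2, a log2 fold change of -4.06 ± 0.25 (adjusted p = 1.61e-56 by edgeR). Its partner Pax2 was at 16.3 and 54.2 CPM in number 1 and at 3.20 and 6.54 CPM in number 2, a log2 fold change of -2.76 ± 0.21. Lhx1, a LIM-homeobox factor of nephric duct and of spinal neurons, was at 90.3 and 163 CPM in number 1 and at 28.0 and 44.8 CPM in number 2. The zinc finger factor Gata3 was at 16.9 and 34.9 CPM in number 1 and at 1.96 and 5.77 CPM in number 2. In all 4 genes the dTAG-13 library was the higher one within each number, and the numbers still did not overlap. None of the 9 calls held in every fit with 1 library left out, and those fits carry no treatment term.

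Matrix genes of mesenchyme were lower in number 2, with 23 of 36 tested members called higher in number 1, 1 (Thy1) called higher in number 2 and a median of -0.71 (-1.09 without untreated replicate 2). Tnc encodes tenascin-C, a matrix glycoprotein of migrating and remodelling tissue, and had the smallest adjusted p of all genes. It was at 35.4 and 39.6 CPM in number 1 and at 1.16 and 1.78 CPM in number 2, a log2 fold change of -4.67 ± 0.25 (adjusted p = 4.19e-73 by edgeR). Col1a1 (chromosome 11, 94936224 to 94953042), the alpha-1 chain of type I collagen, was at 27.3 and 21.9 CPM in number 1 and at 5.16 and 2.63 CPM in number 2, a log2 fold change of -2.69 ± 0.23 (adjusted p = 4.86e-28 by edgeR). Tgfbi, a matrix protein induced by TGF-beta, was at 34.5 and 30.03 CPM in number 1 and at 5.43 and 3.82 CPM in number 2. The microfibril protein Fbn2 was at 384 and 363 CPM in number 1 and at 120 and 95 CPM in number 2, a log2 fold change of -1.80 ± 0.17. These 4 genes did not overlap between the numbers and stayed called whichever library was left out. DESeq2 called 20 members higher in number 1 and 0 higher in number 2. Matrix genes that passed no call included Fn1, at -0.64, and the type VI collagen genes, from -0.03 in Col6a1 to 0.69 in Col6a3 (named after their values were seen).

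**Figure D2:**
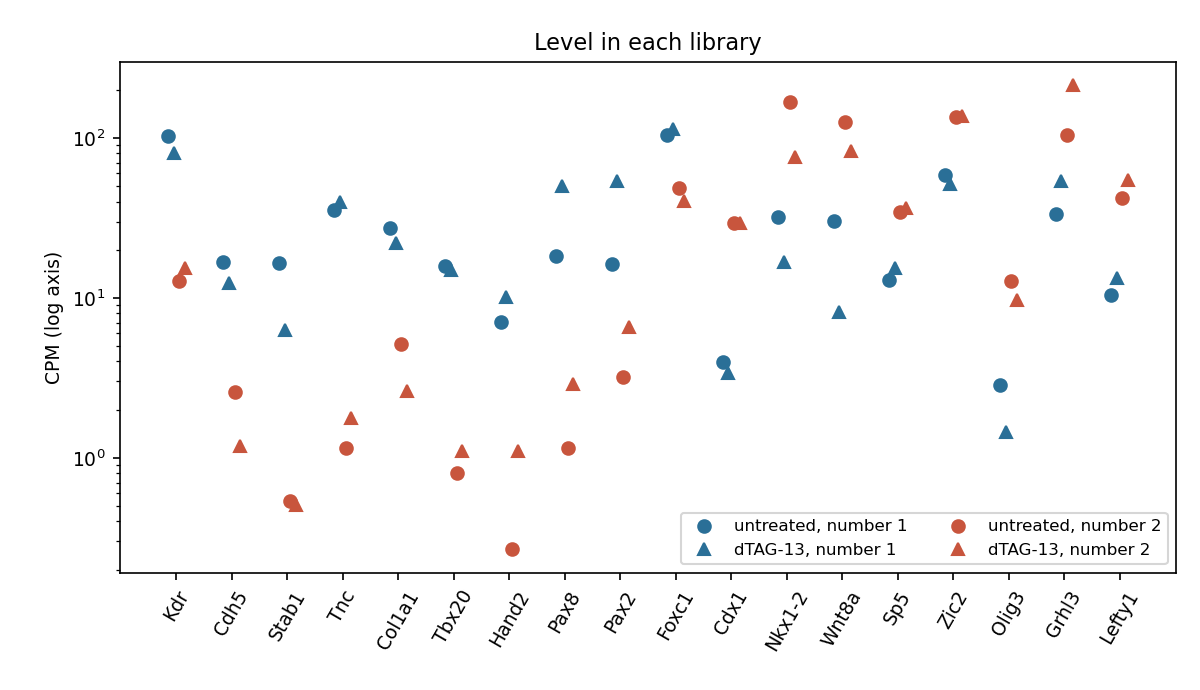
Level of 18 genes in each of the 4 libraries, in CPM on a log axis (circles untreated, triangles dTAG-13, blue number 1, orange number 2). From Kdr to Foxc1 both blue points lie above both orange points, and from Cdx1 to Lefty1 the order is the opposite.

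Somite genes lay mostly on the number 1 side. Of 22 tested somite and dermomyotome genes, 13 were called higher in number 1 and 2, Pax7 and Aldh1a2, higher in number 2, with a median of -1.18 (-0.73 without untreated replicate 1). Foxc1, a forkhead factor of paraxial mesoderm, was at 105 and 113 CPM in number 1 and at 48.5 and 40.3 CPM in number 2, a log2 fold change of -1.30 ± 0.14 (adjusted p = 5.31e-18 by edgeR). Eya1, a transcriptional cofactor of muscle and kidney precursors, was at 45.3 and 67.5 CPM in number 1 and at 11.2 and 21.3 CPM in number 2, a log2 fold change of -1.83 ± 0.16. Prrx1, a homeobox factor of loose mesenchyme, had a log2 fold change of -1.85 ± 0.22. The numbers did not overlap for these 3 genes, and Foxc1 and Prrx1 stayed called whichever library was left out. Tcf15, which is needed for epithelial somites, was level at 0.07, and Pax3, a dermomyotome factor, was at -0.11, neither of them called. DESeq2 called 10 members higher in number 1 and 1 higher in number 2.

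Sclerotome and cartilage genes, those of the ventral somite that form vertebrae, had 8 of 14 tested members called higher in number 1 and 1 (Acan) called higher in number 2, with a median of -1.13. Sox6 was at 34.3 and 21.8 CPM in number 1 and at 11.8 and 9.17 CPM in number 2, a log2 fold change of -1.40 ± 0.19. Pax9 was at 6.93 and 11.6 CPM in number 1 and at 2.40 and 1.87 CPM in number 2, and Snai2 was at 9.49 and 9.90 CPM in number 1 and at 2.49 and 1.61 CPM in number 2. None of these genes overlapped, and of the list's calls Col2a1 was the 1 that held in every left-out fit.

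Presomitic and segmentation clock genes had 4 of 23 tested members called in each direction and a median of -0.05. Hey1, a NOTCH target that is also active in vessels, was at 44.4 and 50.4 CPM in number 1 and at 20.2 and 17.1 CPM in number 2, a log2 fold change of -1.35 ± 0.16 (adjusted p = 1.06e-14 by edgeR). Notum, a secreted WNT inhibitor induced by WNT, was at 15.4 and 14.5 CPM in number 1 and at 26.3 and 30.4 CPM in number 2. The core genes Tbx6, Msgn1, Hes7, Dll1, Dll3 and Lfng passed no call, with log2 fold changes from -0.53 in Tbx6 to 0.35 in Lfng (named after their values were seen). The list's median took either sign when 1 library was left out, from -0.21 without untreated replicate 2 to 0.19 without dTAG-13 replicate 2. It was -0.49 over the 7 tested members that stand in no other list. DESeq2 called 2 presomitic members higher in number 2 and 1 higher in number 1. The presomitic and somite lists were not tested against each other.

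Genes of the tail bud and of neuromesodermal progenitors were higher in number 2: 10 of 23 tested members were called in that direction and 1, the retinoic acid degrading enzyme gene Cyp26a1, in the other, with a median of 0.44. Cdx1, a caudal-type homeobox factor of the posterior axis and a WNT target, was at 3.99 and 3.41 CPM in number 1 and at 29.4 and 29.5 CPM in number 2. Its log2 fold change was 2.98 ± 0.22 (adjusted p = 2.33e-37 by edgeR), and treatment hardly moved it under either number. Nkx1-2, a homeobox gene of the caudal epiblast where these progenitors sit, was at 32.2 and 16.8 CPM in number 1 and at 169 and 75.7 CPM in number 2, a log2 fold change of 2.29 ± 0.15. Wnt8a, a WNT ligand of the posterior embryo, was at 30.3 and 8.10 CPM in number 1 and at 127 and 82.9 CPM in number 2. Its log2 fold change was 2.64 ± 0.16 (adjusted p = 8.48e-50 by edgeR, 0.000472 by DESeq2). In log2 CPM its difference was 2.06 in the untreated pair and 3.33 in the dTAG-13 pair. For these 3 genes the numbers did not overlap. T was at 53.1 and 44.5 CPM in number 1 and at 69.7 and 69.6 CPM in number 2, a log2 fold change of 0.52 ± 0.14 (adjusted p = 0.00332 by edgeR, 0.135 by DESeq2). Cdx2, a related caudal factor, had a log2 fold change of 0.89 ± 0.14, and Cdx4 was at -0.39 with no call. Cdx1 and Sp8 were the 2 of 11 calls that held whichever library was left out, and DESeq2 called 9 members higher and 1 lower in number 2.

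The zinc finger genes Sp5 and Sp8 act downstream of WNT in the tail bud. Sp8 was at 41.2 and 53.2 CPM in number 1 and at 102 and 100 CPM in number 2, a log2 fold change of 1.11 ± 0.14. Sp5 (chromosome 2, 70474923 to 70477726) was at 13 and 15.4 CPM in number 1 and at 34.5 and 36.4 CPM in number 2, a log2 fold change of 1.32 ± 0.18 (adjusted p = 3.57e-12 by edgeR). The 250 bases upstream of its RefSeq start site, chr2:70474673-70474922 on the plus strand of GRCm38.p6, are shown because Sp5 is a direct WNT target in many tissues. Capitals mark CTTTGA, a form of the motif of TCF/LEF factors, which carry the WNT signal to DNA, and AGATAA, a form of that of GATA factors. These forms were searched on both strands, and other forms were not searched.
Sp5: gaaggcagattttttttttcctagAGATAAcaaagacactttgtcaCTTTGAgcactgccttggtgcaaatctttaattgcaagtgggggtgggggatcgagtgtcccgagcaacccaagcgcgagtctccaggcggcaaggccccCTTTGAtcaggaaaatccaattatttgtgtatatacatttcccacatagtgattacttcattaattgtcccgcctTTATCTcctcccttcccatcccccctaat
In these forms the TCF/LEF motif occurs in the Sp5 stretch at -204 and -104 and the GATA motif at -226 and -29. Among all promoters of this length, 14% hold the TCF/LEF motif and 10.3% the GATA motif. Across the list of WNT targets, 9 of 21 tested members were called higher in number 2 and 3 higher in number 1, with a median of 0.25 (0.16 without dTAG-13 replicate 2). The feedback gene Axin2 was called at 0.52, whereas Lef1, Nkd1, Lgr5 and Znrf3 passed no call, at -0.16, 0.12, -0.45 and 0.14 (named after their values were seen).

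Neural tube progenitor genes were higher in number 2, with 13 of 30 tested members called in that direction and 2, Hes5 and Pou3f3, in the other (median 0.52). Zic2, a zinc finger factor of the early neural plate, was at 59.1 and 51.7 CPM in number 1 and at 135 and 137 CPM in number 2, a log2 fold change of 1.30 ± 0.14 (adjusted p = 5.05e-18 by edgeR). Gbx2, a homeobox gene of anterior hindbrain and posterior neural plate, was at 31.9 and 24.9 CPM in number 1 and at 101 and 56.6 CPM in number 2. Olig3, a factor of dorsal spinal progenitors, was at 2.86 and 1.45 CPM in number 1 and at 12.8 and 9.68 CPM in number 2, a log2 fold change of 2.39 ± 0.30. Pou3f3, a POU-domain factor of neural tube and kidney, went the other way, with 8.59 and 18.1 CPM in number 1 and 3.11 and 1.95 CPM in number 2. These 4 genes did not overlap between the numbers, and Zic2 was the 1 of the list's 15 calls that held whichever library was left out. The list's median fell from 1.01 without untreated replicate 1 to 0.01 without untreated replicate 2.

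Neuronal genes were called in both directions. Of 19 tested members, 8 were called higher in number 2 and 4 higher in number 1, with a median of 0.47. The 8 were Tubb3, Stmn2, Stmn3, Neurod1, Mnx1, Ina, Nefl and Gap43, which encode cytoskeletal and growth cone proteins and 2 transcription factors, at 0.75 to 1.61. The 4 were the transcription factor genes Isl1, Lhx1, Ebf2 and Ebf3, which mesoderm also expresses. Isl1, a factor of motor neurons and of heart progenitors, was at 11.8 and 20.5 CPM in number 1 and at 1.42 and 2.63 CPM in number 2, a log2 fold change of -2.99 ± 0.29. Ebf2 was at 15.5 and 12.8 CPM in number 1 and at 1.42 and 1.02 CPM in number 2, a log2 fold change of -3.53 ± 0.32. DESeq2 called 3 members higher in number 2 and 4 higher in number 1.

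Neural crest genes also split, with 7 of 17 tested members called higher in number 2 and 4 higher in number 1. The distal-less homeobox genes Dlx1, Dlx2, Dlx5 and Dlx6 were all on the number 2 side. Dlx2 was at 0.753 and 0.853 CPM in number 1 and at 3.20 and 7.81 CPM in number 2, a log2 fold change of 2.71 ± 0.41 (adjusted p = 1.58e-09 by edgeR). Dlx5 was at 4.44 and 16.2 CPM in number 1 and at 8.63 and 49.2 CPM in number 2, so that the groups overlapped. Those higher in number 1 were Snai2, Ets1, Ngfr and Twist1, the first 2 at -2.24 ± 0.31 and -1.68 ± 0.17. Sox10, a defining factor of migrating crest, had 3 to 6 counts in each library, and Foxd3 had 0 in all 4. The list's median was 0.30 and changed sign without dTAG-13 replicate 2, to -0.33.

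Epithelial genes were higher in number 2. Of 36 tested members of the epithelium and surface ectoderm list, 20 were called in that direction and 2, Gata3 and Krt19, in the other, with a median of 0.63. Grhl3, a grainyhead factor of surface ectoderm, was at 33.4 and 54.0 CPM in number 1 and at 104 and 213 CPM in number 2, a log2 fold change of 1.81 ± 0.14 (adjusted p = 3.49e-33 by edgeR). Tfap2c, an AP-2 factor of surface ectoderm and germ cells, was at 32.2 and 55.9 CPM in number 1 and at 76.8 and 157 CPM in number 2. Cldn4, a tight junction protein, was at 15.7 and 30.03 CPM in number 1 and at 31.2 and 93.7 CPM in number 2, a log2 fold change of 1.33 ± 0.15. In these genes the dTAG-13 library exceeded the untreated one within each number, and the lowest number 2 value of Cldn4 lay just above the highest number 1 value. Both number 2 libraries lay above both number 1 libraries for 10 of the 36 members, against 23.1% of all genes. None of the 22 calls held in every left-out fit, in which treatment is not a term, and leaving out dTAG-13 replicate 2 gave a median of -0.20. DESeq2 called 13 members higher and 1 lower in number 2.

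Pluripotency and germ cell genes leaned to number 2. Of 28 tested pluripotency genes, 12 were called higher in number 2 and 2, Otx2 and Fgf5, higher in number 1. The median was 0.36, with 0.14 when dTAG-13 replicate 2 was left out and 0.65 when dTAG-13 replicate 1 was. Lefty1, a secreted NODAL antagonist and itself a NODAL target, was at 10.4 and 13.2 CPM in number 1 and at 42.3 and 54.8 CPM in number 2, a log2 fold change of 2.04 ± 0.17 (adjusted p = 6.92e-30 by edgeR). It stayed called whichever library was left out. Otx2, a homeobox gene of anterior epiblast and forebrain, was at 69.7 and 69.8 CPM in number 1 and at 19 and 31.4 CPM in number 2. Pou5f1 (Oct4) was at 63.4 and 72.1 CPM in number 1 and at 82.5 and 142 CPM in number 2, a log2 fold change of 0.68 ± 0.14. Those of the naive state, Klf2 and Tfcp2l1, were at 0.99 ± 0.16 and 0.81 ± 0.14. DESeq2 called 6 of the pluripotency genes higher in number 2 and 1 higher in number 1. Of 15 germ cell genes, 5 were called higher in number 2, among them Alpl at 0.96 ± 0.14, and 1, Prdm1, higher in number 1. The germ cell median was 0.39, with 0.61 when dTAG-13 replicate 1 was left out and 0.29 when dTAG-13 replicate 2 was.

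Endoderm genes mostly lay on the number 1 side, with 9 of 24 tested gut endoderm genes called higher in number 1 and 4 higher in number 2 (median -0.45). The GATA factors, which cardiac mesoderm shares, had the smallest p among them. Gata4 was at 20.2 and 29.3 CPM in number 1 and at 4.09 and 7.56 CPM in number 2, and Gata6 was at 25.9 and 33.4 CPM in number 1 and at 6.85 and 9.34 CPM in number 2. The largest difference in size was that of Prss12, at -2.89 (named after its values were seen). Cubn, an uptake receptor of visceral endoderm and kidney, had a log2 fold change of -1.80 ± 0.21. The endoderm factors Foxa2 and Sox17 passed no call, at 0.08 and -0.50. DESeq2 called 6 of the gut endoderm genes higher in number 1 and 3 higher in number 2. Of 16 tested genes of extraembryonic endoderm and trophoblast, 9 were called higher in number 1 and 2 higher in number 2, and Eomes, a T-box factor of early mesoderm and trophoblast, was at 28.2 and 48.5 CPM in number 1 and at 8.10 and 14.9 CPM in number 2. Afp and Apoa4 were at 0 counts in every library. Of 8 tested genes of extraembryonic mesoderm, Bmp2 and Hoxa10 were called higher in number 1 at -0.64 and -1.48, and 6 passed no call. Bmp2 was at 19.1 and 34.5 CPM in number 1 and at 10.5 and 25.3 CPM in number 2, so that the groups overlapped, and its call held in 0 of the 4 left-out fits. DESeq2 called 0 members of that list. Notochord and floor plate genes had 2 of 14 called higher in number 2 and 3 higher in number 1, counts too small to set apart from the 5.27% and 7.54% of all genes, and DESeq2 called 1. Slit2, an axon guidance protein, was at -1.08 ± 0.14 among them, and the notochord genes Shh, Noto and Chrd passed no call.

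**Figure D3:**
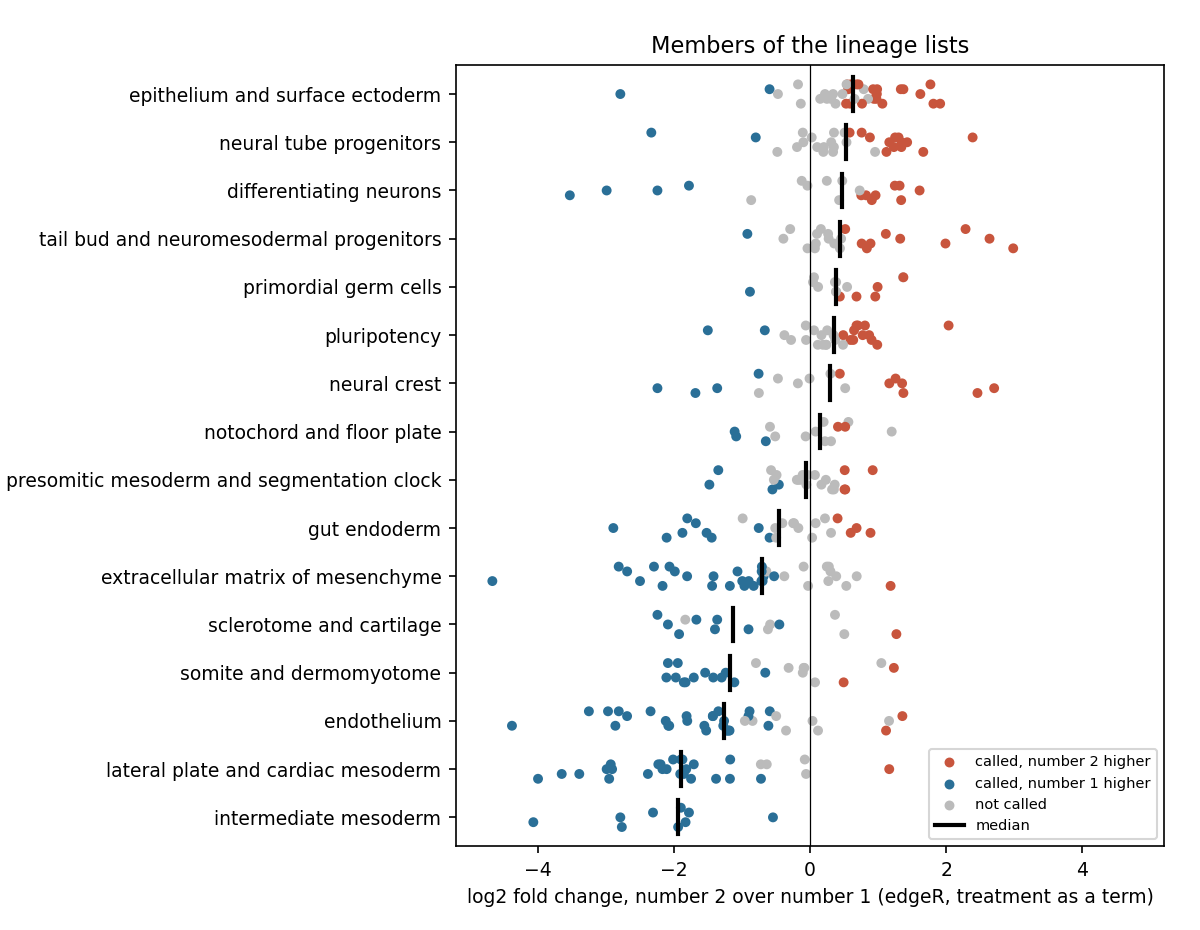
Log2 fold change of number 2 over number 1 for the tested members of 16 lineage lists, 1 point per gene, with the list's median as a black bar. Medians run from -1.94 in intermediate mesoderm and -1.90 in lateral plate to 0.63 in epithelium, and several lists hold calls on both sides of 0.

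Hox genes, whose order in the clusters follows the order of their expression along the body axis, had calls in both directions, and those of the Hoxd cluster lay together on the number 1 side. Grouping them by cluster was chosen after the values were seen. In groups 1 to 4, 3 of 12 tested genes were called in each direction, and in groups 5 to 9, 4 of 15 in each direction, with medians of 0.09 and -0.06. All 6 tested genes of the Hoxd cluster (chromosome 2, 74684273 to 74765142) were higher in number 1 and 5 of them were called, with a median of -1.64. Hoxd3 was at 51.1 and 30.5 CPM in number 1 and at 16.6 and 7.81 CPM in number 2, a log2 fold change of -1.77 ± 0.18 (adjusted p = 3.02e-21 by edgeR). Its annotated span (74711993 to 74748271) contains Hoxd4 (74721978 to 74729160), so reads of the 2 genes may be shared. Hoxd8 and Hoxd9 had log2 fold changes of -1.78 ± 0.20 and -1.50 ± 0.20, and Hoxd1, the 1 not called, was at -0.52 ± 0.26. Of the 6 Hoxc genes, 5 were also higher in number 1 and 2 were called there, with a median of -0.24 and 1 call in the other direction. The 9 Hoxa genes had a median of 0.31 and the 9 Hoxb genes one of 0.28, and the clusters were not tested against each other. Hoxb9 was at 310 and 236 CPM in number 1 and at 736 and 384 CPM in number 2 (named after its values were seen). Of groups 10 to 13, the 3 genes with enough reads, Hoxa10, Hoxc10 and Hoxd10, were called higher in number 1, at 8.79 CPM or less in every library. No Hox call held in every fit with 1 library left out. Of the calls described here, Hoxb1, Hoxd10 and Hoxa10 are the scarcer or less separated ones: Hoxb1 overlapped between the numbers, and DESeq2 gave Hoxa10 and Hoxd10 adjusted p of 0.0546 and 0.0781.

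**Figure D4:**
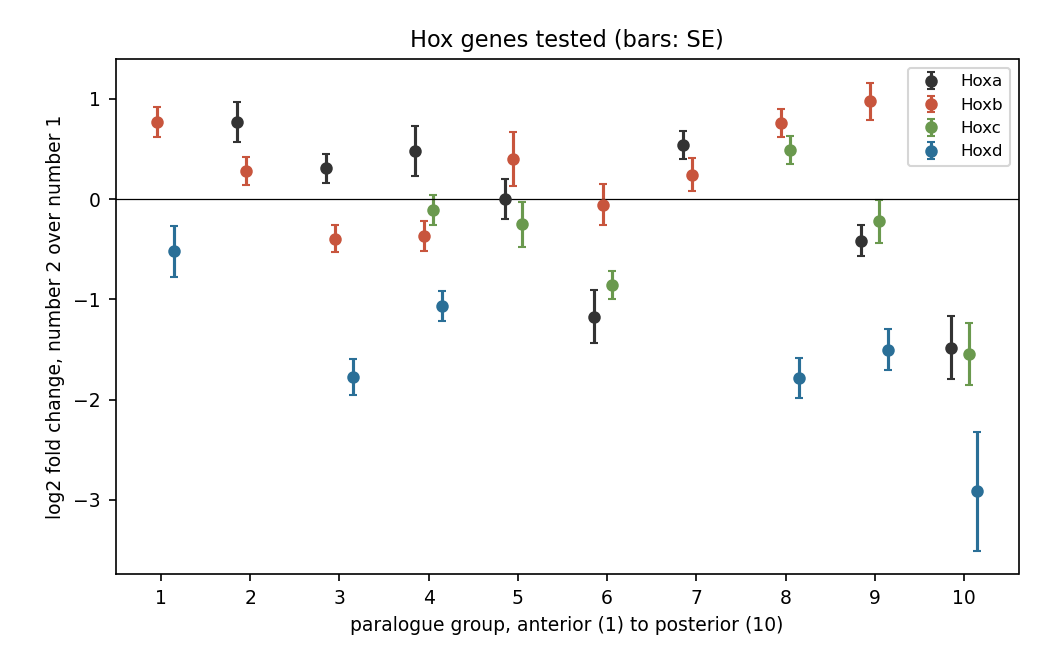
Log2 fold change of number 2 over number 1 (bars: standard error of edgeR's fit) for tested Hox genes by paralogue group, coloured by cluster. The 6 Hoxd genes lie below 0, from -2.92 in Hoxd10 to -0.52 in Hoxd1, and those of group 10 lie below 0 in each of the 3 clusters tested there.

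Among BMP targets, 11 of 19 tested members were called higher in number 1 and 3 higher in number 2, with a median of -0.72. That median rested on single libraries: leaving out dTAG-13 replicate 2 gave -1.29, and leaving out dTAG-13 replicate 1 gave -0.14. Id1, an inhibitor of helix-loop-helix factors and a direct BMP target, was at 61.4 and 97.9 CPM in number 1 and at 25 and 38 CPM in number 2, a log2 fold change of -1.33 ± 0.15 (adjusted p = 7.76e-18 by edgeR). Id2, Id3, Id4, Smad6, Smad7 and Smad9 were also called in this direction, from -1.58 in Smad9 to -0.64 in Smad6 (named after their values were seen). The exceptions were Msx1, Dlx5 and Atoh8. Msx1, a homeobox gene that dorsal neural tube also expresses, was at 18.1 and 41.5 CPM in number 1 and at 35.1 and 106 CPM in number 2, with overlapping groups. None of the 14 calls held in every left-out fit, and DESeq2 called 7 higher in number 1 and 2 higher in number 2.

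NOTCH response genes had 7 of 17 members called higher in number 1 and 2 higher in number 2. Those higher in number 1 included the ligand genes Jag1 and Dll4 and the targets Hey1, Hey2 and Heyl, which vessels use, while Notch1, Notch2 and Notch3 were at -0.14 to -0.10 with no call. Jag1 was at 127 and 239 CPM in number 1 and at 74.5 and 72.8 CPM in number 2. Its log2 fold change was -1.25 ± 0.15 (adjusted p = 2.65e-15 by edgeR, 0.112 by DESeq2). In log2 CPM its difference was -0.77 in the untreated pair and -1.71 in the dTAG-13 pair. DESeq2 called 2 of the NOTCH members higher in number 1 and 1 higher in number 2. Retinoic acid genes were called in both directions, 8 of 18 higher in number 2 and 4 higher in number 1. Rdh10, which makes the precursor of retinoic acid, was at 33.3 and 44.6 CPM in number 1 and at 14.1 and 15.3 CPM in number 2. Cyp26a1, which degrades it, was at 61.1 and 62.6 CPM in number 1 and at 26.5 and 40.0 CPM in number 2. FGF targets had 3 of 16 called higher in number 2 and 1 higher in number 1, beside 5.27% and 7.54% of all genes. Those higher in number 2 were Dusp6, Dusp4 and Etv4 at 0.46 to 0.51. Etv1 was the other, at -0.62, and DESeq2 called none of them. Hedgehog genes likewise had 2 of 14 called higher in number 2 and 3 higher in number 1, beside 5.27% and 7.54% of all genes, and the pathway targets Gli1 and Ptch1 passed no call, at 0.37 and -0.06.

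Genes of hypoxia and glycolysis leaned to number 1: 14 of 31 tested members were called higher there and 1, the glucose transporter gene Slc2a1, higher in number 2, with a median of -0.32. Vegfa, the ligand of Kdr, was at 175 and 132 CPM in number 1 and at 71.5 and 70.4 CPM in number 2, a log2 fold change of -1.10 ± 0.14 (adjusted p = 1.24e-12 by edgeR), and stayed called whichever library was left out. Bnip3, a mitophagy protein induced by low oxygen, was at 110 and 111 CPM in number 1 and at 71.6 and 62.8 CPM in number 2. Slc2a1 was at 950 and 933 CPM in number 1 and at 2084 and 1840 CPM in number 2, a log2 fold change of 1.06 ± 0.26. The glycolytic enzyme gene Pfkp was called, at 195 and 145 CPM in number 1 and at 94.0 and 78.0 CPM in number 2. Its log2 fold change was -0.97 ± 0.14 (adjusted p = 1.01e-09 by edgeR, 2.14e-06 by DESeq2). Other glycolytic enzyme genes, Pgk1, Ldha, Aldoa, Gapdh and Tpi1, passed no call, from -0.25 in Ldha to 0.16 in Gapdh (Slc2a1 and these 5 named after their values were seen). DESeq2 called 8 members of the list higher in number 1 and 2 higher in number 2.

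Imprinted genes, expressed from 1 parental copy, included some of the most separated genes. Of 24 tested members, 7 were called higher in number 1 and 2, Igf2r and Plagl1, higher in number 2. Peg3, a zinc finger gene, was at 2815 and 3815 CPM in number 1 and at 1003 and 1173 CPM in number 2, a log2 fold change of -1.59 ± 0.29 (adjusted p = 2.15e-06 by edgeR). Usp29, its neighbour on chromosome 7, was at 118 and 140 CPM in number 1 and at 49.2 and 44.6 CPM in number 2, a log2 fold change of -1.46 ± 0.14. Asb4, on chromosome 6 and also active in vessels, was at 31.7 and 41.7 CPM in number 1 and at 9.16 and 9.85 CPM in number 2. With 1 library left out, log2 fold changes ranged from -1.805 to -1.371 in Peg3, from -1.574 to -1.331 in Usp29 and from -2.127 to -1.736 in Asb4. Mir675, outside the naming rule and picked after its values were seen, was at 269 and 250.5 CPM in number 1 and at 37.6 and 37.8 CPM in number 2. Its hairpin lies within the H19 transcript, which was not analysed here, and reads of the 2 may not be separable.

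Lists of housekeeping, stress and signal response functions mostly had few or no calls, although some leaned to one side and immediate early genes had more calls. No gene was called by edgeR among 33 of G2 and M phase, 53 of ribosomal proteins, 22 of cholesterol synthesis and 7 of the mitochondrial genome, with medians of -0.02, 0.03, -0.11 and 0.45. At an unadjusted p under 0.05, edgeR had 1, 2, 4 and 2 genes of these lists, and DESeq2 called 0, 0, 0 and 2. Those 2 were ND1 and ND2, both higher in number 2. All 7 mitochondrial genes tested were higher in number 2, 6 of them without overlap, and their median ranged from 0.17 without untreated replicate 1 to 0.72 without dTAG-13 replicate 1. ND1, a subunit of respiratory complex I, was at 1434 and 2326 CPM in number 1 and at 3144 and 3323 CPM in number 2 (adjusted p = 0.0519 by edgeR, 0.000171 by DESeq2). S phase genes had 1 call of 27, E2f8 at 0.53. Of the 27, 23 were higher in number 2 and 20 had both number 2 libraries above both number 1 libraries, against 23.1% of all genes. Their median was 0.23 (0.15 without untreated replicate 2), and DESeq2 called 0 of them. The p53 list had 1 call of 22, Phlda3 at 0.57, and the stress and unfolded protein list 1 of 22, Ddit4 at -0.58. Immediate early genes, which respond to handling, had 4 of 17 called higher in number 1, Ier3, Egr3, Ccn1 and Jun, and 1, Ccn2, higher in number 2. Of all genes, 7.54% and 5.27% were called in these directions, and DESeq2 called 1 immediate early gene in each. The interferon list had 1 call of 14, Usp18 at -0.96 (adjusted p = 0.0329 by edgeR, 0.605 by DESeq2). The single calls of the S phase, p53, stress and interferon lists are too few to set apart from the 5.27% and 7.54% of all genes. Chromosome medians lay between -0.05 on chromosome 13 and 0.04 on chromosome 17, and the 7 Y-linked genes looked up (Ddx3y, Eif2s3y, Kdm5d, Uty, Usp9y, Zfy1 and Zfy2) were at 0 counts in every library.

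The largest differences by the naming rule, outside the lists, were in genes of varied function. On the number 1 side, Robo3, an axon guidance receptor, was at 25.8 and 9.30 CPM in number 1 and at 0.445 and 0.509 CPM in number 2, a log2 fold change of -5.11 ± 0.37 (adjusted p = 1.10e-39 by edgeR). Rgs5, a pericyte marker, was at 17.2 and 21.7 CPM in number 1 and at 0.979 and 2.12 CPM in number 2, and Oxtr, the oxytocin receptor gene, was at 5.42 and 15.7 CPM in number 1 and at 0.712 and 0.594 CPM in number 2. Bace2, Igsf5 and Dnm3 had log2 fold changes of -4.87, -4.20 and -4.16, with at most 5.42 CPM in any library. On the number 2 side, Gabrg1, a GABA receptor subunit gene, was at 1.21 and 0.512 CPM in number 1 and at 9.16 and 2.29 CPM in number 2, a log2 fold change of 2.702 ± 0.41. Epn3, an epithelial endocytosis adaptor, was at 1.13 and 3.50 CPM in number 1 and at 3.65 and 20.9 CPM in number 2, so that its groups lay next to each other. Rab3c and Paqr6 were at 2.58, Mocos at 2.24 and H2-Q2 at 2.23, the last 2 with DESeq2 adjusted p of 0.0725 and 0.0841. The sizes of several of these differences depended on single libraries. With 1 library left out, they ranged from 0.693 to 3.437 in Epn3, from 0.618 to 3.179 in Mocos and from 1.375 to 3.453 in Gabrg1. In Robo3 the range was -5.726 to -4.247. Reads of H2-Q2 may be shared with near-identical genes of its family.

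Promoter motifs occurred in similar shares of called and of all tested genes. The ETS motif was in 27.1% of 764 promoters of genes called higher in number 1, in 26.3% of 520 called higher in number 2 and in 26.7% of 10723 tested. The GATA motif was in 6.94%, 5% and 5.53% of these sets. The TCF/LEF motif was in 9.95%, 11.2% and 10.6%, and the CDX motif (TTTATG, both strands) in 5.24%, 5.38% and 5.45%. These are descriptions of letters in a 250-base window, with no test.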

How the data were processed

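RNA was extracted with a column kit and DNase, and libraries were made after ribosomal RNA depletion, per the labels' protocols. Builds mm10 and GRCm38.p6 appear in the submitters' processing notes, with DESeq2 1.34.0, HTSeq 0.12.4, STAR 2.7.6a and fastp 0.20.1 as tools. Neither the annotation nor the strand setting of the counting is given in the sources used here. What the authors deposited are whole-number read counts per gene symbol, without normalization. Reads of overlapping or near-identical genes are therefore uncertain, and Zeb2 has an antisense neighbour.

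The 5 summary lines of each table did not enter the library sizes or any test. Of the reads in genes, outside them or ambiguous between them, 24.12% to 35.65% lay outside genes and 0.209% to 0.240% were ambiguous. The libraries were grouped by the number in their titles. Counts were tested with edgeR 4.0.16 under R 4.3.3. Genes were kept by filterByExpr, with the number as the group, at a minimum count of 10 and a total of at least 15. The fit used TMM factors, glmQLFit with robust estimation and legacy off, and a two-sided glmQLFTest of the number with treatment as a term. Each SE was taken as the size of the log2 fold change over the square root of its F value. The biological coefficient of variation was 11.2%, and the prior degrees of freedom were infinite for 12629 genes. DESeq2 1.42.0, other scalings, filters and terms, and fits without 1 library were alternatives. The fits without 1 library used the number as the only term, since treatment would leave no residual degrees of freedom. The test was also run on counts simulated with a common spread estimated from these libraries. That run cannot show how the test handles scatter between repeats.

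The comparison, its 40 gene lists and the rule for naming genes were chosen with earlier results of these data known. The rule took 5 marker genes and Zeb2, in each direction the 12 largest called differences of 1 direction in both treatments with a mean log2 CPM of 1 or more (predicted genes, microRNAs and the like left out), and in each list the 4 members of smallest p whose mean log2 CPM was 0 or more, or 2 where none was called. Genes named only as members of a count, or beside the words that they were chosen after their values were seen, fall outside it. Of 952 listed symbols, 936 were in the tables, 4 by an older symbol. Coordinates and promoters are RefSeq's for GRCm38.p6, with 24827 of 24831 gene symbols matched. Cdx1, Col1a1, Hand1 and Wnt8a had no promoter entry. Some members of the lists are not reported here by name, and not every tested Hox gene is plotted.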

Additional observations from a re-analysis of the deposited data

Results flagged for a closer look

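Igf2, an imprinted growth factor gene, and 4 lists had opposite directions in the untreated and the dTAG-13 pair, each with 1 library per number and treatment, and the difference between treatments was not tested. In log2 CPM, number 2 minus number 1, Igf2 was at 0.091 in the untreated pair and at -0.669 in the dTAG-13 pair. The median of the presomitic and segmentation clock genes was 0.18 in the untreated pair and -0.202 in the dTAG-13 pair. That of the notochord and floor plate genes was -0.166 in the untreated pair and 0.4 in the dTAG-13 pair. The median of the G2 and M phase genes was 0.001 and -0.028, and that of the interferon genes -0.009 and 0.08, in the same order.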

How the results depend on the processing

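No paired analysis was possible because the replicate number is itself the difference compared, so it cannot also serve as a block. DESeq2 called 235 genes higher in number 2, 409 higher in number 1 and 644 in all. Without the treatment term these counts were 108, 329 and 437. With 1 library left out they were 16 to 362, 88 to 504 and 104 to 866. RLE or upper quartile scaling, no robust estimation, the legacy fit, no filter, at least 50 counts, and removal of the mitochondrial and 50 highest genes kept the total between 1388 and 1765.

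Medians that kept their sign when 1 library was left out ranged as follows: endothelium from -1.436 to -1.24, lateral plate and cardiac mesoderm from -2.121 to -1.667, intermediate mesoderm from -3.024 to -1.476, mesenchymal matrix from -1.086 to -0.678, somite from -1.418 to -0.726, sclerotome from -1.402 to -0.849, gut endoderm from -0.657 to -0.341, extraembryonic endoderm from -1.187 to -0.751, BMP targets from -1.293 to -0.142, neural tube from 0.007 to 1.01, tail bud from 0.398 to 0.523, WNT targets from 0.158 to 0.33 and pluripotency from 0.136 to 0.645, among others. Medians that took either sign were those of extraembryonic mesoderm (-0.52 to 0.047), presomitic genes (-0.212 to 0.187), neural crest (-0.332 to 0.893), notochord (-0.218 to 0.29), epithelium (-0.199 to 1.375), Hox groups 1 to 4 (-0.337 to 0.512) and 5 to 9 (-0.195 to 0.108), retinoic acid (-0.068 to 0.454), NOTCH (-0.5 to 0.036), p53 (-0.011 to 0.257), stress (-0.029 to 0.216), immediate early (-0.127 to 0.112), interferon (-0.264 to 0.419), G2 and M phase (-0.034 to 0.031) and ribosomal protein genes (-0.011 to 0.091). With at least 50 counts, the medians of the presomitic and neural crest genes were 0.012 and -0.25. Over members in no other list, medians changed sign for notochord (-0.184), Hox groups 1 to 4 (-0.238) and immediate early genes (0.013), and moved to -0.491 for presomitic, -0.753 for gut endoderm, -0.761 for sclerotome, -2.306 for intermediate mesoderm and 0.133 for WNT genes, among others. The fits without 1 library lack a treatment term by construction, and the cause of the other changes was not tested. Of the 124 named genes that were called, DESeq2 kept 102, the fit with no treatment term 60, and those without dTAG-13 replicate 1 or 2 or untreated replicate 1 or 2 kept 36, 63, 50 and 81. With 2 libraries per number, depth limits the genes under about 1 CPM most.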
